A study of Mus musculus with 21 samples.

Results

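Transcripts of 9 genes that act at the end of the taste signalling cascade were followed in tuft cells, chemosensory cells of epithelia, from 5 mouse tissues. They encode phospholipase C beta 2 (Plcb2), the inositol trisphosphate (IP3) receptors Itpr1, Itpr2 and Itpr3, the cation channels Trpm5 and Trpm4, and the channel genes Calhm1, Calhm2 and Calhm3. The 9 genes were picked by their symbols out of 43432 gene identifiers, and each was found as 1 identifier. Tuft cells were sorted from small intestine (n = 3 libraries), colon (n = 4), gall bladder (n = 3), thymus (n = 4) and trachea (n = 4). Non-tuft cells, the remaining epithelium of the small intestine, were sorted as the comparison (n = 3). All mice were untreated C57BL6 animals homozygous for Flare25, a fluorescent reporter in the Il25 gene, so that the non-tuft libraries carry the same allele. The sort kept live EPCAM-positive cells without CD45, of which those with reporter signal were taken as tuft cells and those without it as non-tuft cells.

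Small intestine, colon, gall bladder and thymus libraries came from 1 male of 12 weeks each. Each trachea library was a pool of 4 mice, aged 12, 16, 16 and 14 weeks in pools 1 to 4, and pools 3 and 4 were female. Deposited counts summed to between 25739248 and 73574745 per library. Far fewer cells stood behind some of them, with 130 to 453 sorted cells in trachea, 1350 to 1900 in thymus and 1750 to 2700 in gall bladder. Colon had 13500 to 16000, small intestine tuft 35000 to 36000 and non-tuft 52000 to 57000 sorted cells. Levels are given as CPM, read counts scaled to a common library total. Summed over 15 defining tuft genes, among them Dclk1, Pou2f3 and Avil, they were 24100 to 32600 CPM in small intestine tuft libraries, 4850 to 6400 in colon tuft and 20700 to 23000 in gall bladder tuft libraries. The sum was 7330 to 8420 CPM in thymus tuft, 10400 to 16700 in trachea tuft and 248 to 444 in non-tuft libraries, and all 15 genes were called higher in each tuft group than in non-tuft cells. Calls required a change of at least 2-fold, which is 1 on the log2 scale, and an adjusted p under 0.05 in edgeR's quasi-likelihood test with Benjamini-Hochberg adjustment over all genes tested.

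In type II taste cells of the tongue, a taste receptor releases the beta and gamma subunits of a G protein, and these activate PLCB2. PLCB2 makes IP3, IP3 opens a receptor channel in the endoplasmic reticulum, and the calcium set free opens TRPM5, which depolarizes the cell. Taste cells then release ATP to the nerve through a large-pore channel built from CALHM1 and CALHM3. TRPM5 and PLCB2 are also known as markers of tuft cells outside the tongue.

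Transcripts of Trpm5, Plcb2 and Itpr2 were much higher in tuft cells of all 5 tissues than in non-tuft cells, and Calhm3 was higher in all 5 at far lower levels. Itpr3, the receptor gene known from mouse taste cells, was called higher in none of the 5 comparisons. Itpr1 was higher in trachea tuft cells, Calhm1 in thymus and trachea tuft cells, and Trpm4 was lower in thymus and trachea tuft cells. The promoters of Trpm5, Plcb2 and Itpr2, called higher in all 5 tissues, are shown here beside that of Itpr3, called higher in none. Each run is the 250 bases before the transcription start on the gene's strand, from RefSeq on GRCm38.p6. They lie at chr7:143094643-143094892 (minus strand) for Trpm5, at chr2:118728439-118728688 (minus) for Plcb2, at chr6:146502224-146502473 (minus) for Itpr2 and at chr17:27057054-27057303 (plus) for Itpr3. Capitals mark the octamer ATGCAAAT read on either strand, a motif that POU-domain factors are known to bind.
Trpm5: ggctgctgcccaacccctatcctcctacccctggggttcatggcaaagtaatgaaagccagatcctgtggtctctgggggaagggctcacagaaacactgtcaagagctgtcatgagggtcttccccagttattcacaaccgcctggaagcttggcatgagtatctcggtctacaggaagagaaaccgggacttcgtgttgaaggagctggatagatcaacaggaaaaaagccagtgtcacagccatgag
Plcb2: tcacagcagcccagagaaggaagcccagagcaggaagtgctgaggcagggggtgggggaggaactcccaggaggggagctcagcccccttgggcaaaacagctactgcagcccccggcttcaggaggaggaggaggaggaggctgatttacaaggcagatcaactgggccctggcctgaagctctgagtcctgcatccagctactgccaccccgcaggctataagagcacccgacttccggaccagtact
Itpr2: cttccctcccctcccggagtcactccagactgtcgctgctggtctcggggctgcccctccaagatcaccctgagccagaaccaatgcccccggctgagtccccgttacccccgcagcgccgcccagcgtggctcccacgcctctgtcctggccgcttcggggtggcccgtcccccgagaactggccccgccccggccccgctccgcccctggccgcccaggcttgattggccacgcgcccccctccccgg
Itpr3: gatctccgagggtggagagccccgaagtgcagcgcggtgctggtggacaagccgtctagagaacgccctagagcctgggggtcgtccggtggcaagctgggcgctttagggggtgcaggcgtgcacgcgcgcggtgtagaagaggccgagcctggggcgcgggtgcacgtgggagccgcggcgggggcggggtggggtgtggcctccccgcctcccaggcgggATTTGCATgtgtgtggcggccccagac
Of the 6 member genes in the promoter table (these 4, Calhm1 and Calhm2), the Itpr3 window alone held the octamer. It read ATTTGCAT there, 27 to 20 bases before the start. Of 32851 windows of this length, 1.6% held it. The Trpm5 window had 52.8% G and C, close to the median of 52.4% over all windows, while Plcb2 had 62.0%, Itpr3 72.0% and Itpr2 74.4%.

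By GENCODE M21 on GRCm38, Plcb2 (ENSMUSG00000040061) lies on chromosome 2 from 118707517 to 118728438 on the minus strand. Itpr1 (ENSMUSG00000030102) lies on chromosome 6 from 108213096 to 108551109 on the plus strand, and Itpr2 (ENSMUSG00000030287) on the same chromosome from 146108299 to 146502223 on the minus strand. Itpr3 (ENSMUSG00000042644) spans chromosome 17 from 27057304 to 27122223 on the plus strand. Trpm5 (ENSMUSG00000009246) and Trpm4 (ENSMUSG00000038260) are both on the minus strand of chromosome 7, from 143069153 to 143094642 and from 45302632 to 45333780. The 3 Calhm genes are neighbours on the minus strand of chromosome 19. Calhm2 (ENSMUSG00000033033) runs from 47105353 to 47138294, Calhm1 (ENSMUSG00000079258) from 47140909 to 47144254 and Calhm3 (ENSMUSG00000094219) from 47151609 to 47157764. Values are read counts summed over a gene's exons. The sources used here do not say whether the counting used strand, and 4 member genes share exon bases with a gene on the other strand. Trpm5 shares 220 with Tssc4, Calhm2 436 with Pdcd11 and Itpr3 233 with Itpr3os. Itpr1 shares 181 with Gm44101 and 108 with Gm44040.

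**Figure D1:**
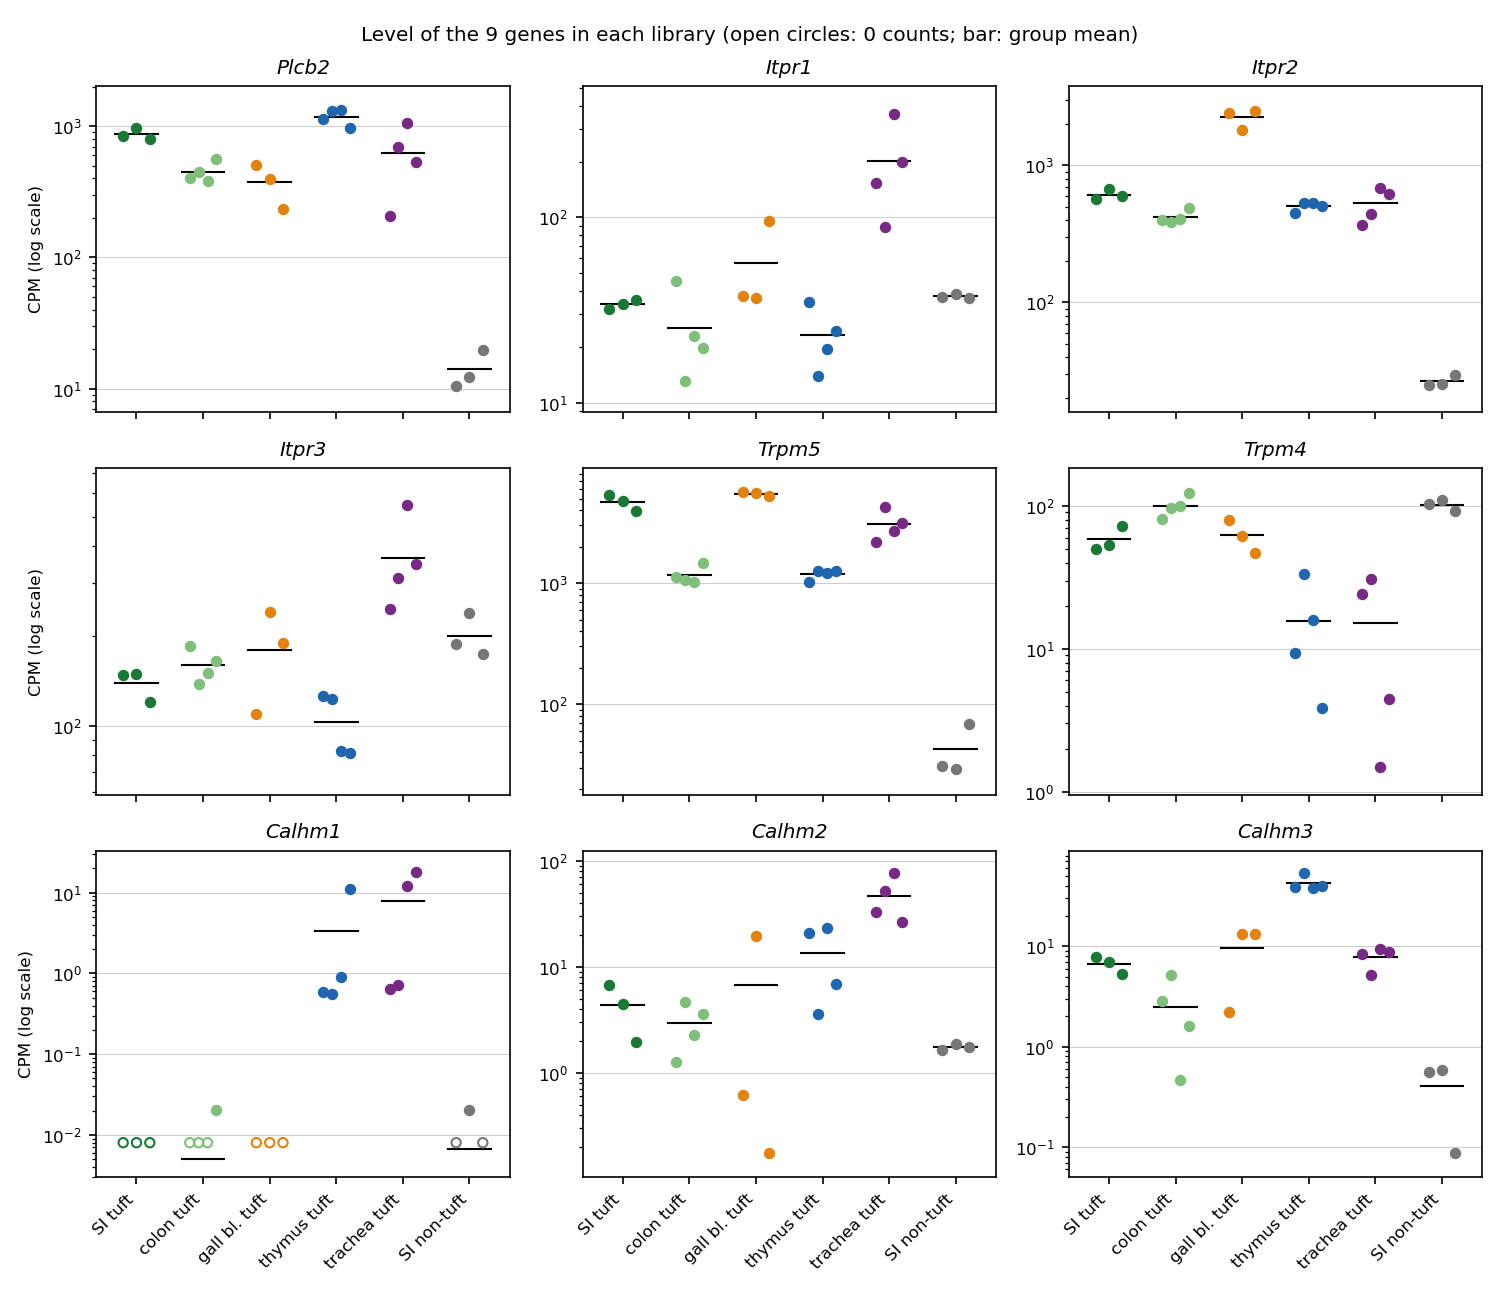
TMM-scaled CPM of each of the 9 genes on a log axis, 1 panel per gene and 1 point per library, with a bar at the group mean and open circles for libraries with 0 counts (SI is small intestine); the 5 tuft groups stand left of the non-tuft group. Trpm5, Plcb2 and Itpr2 lie above the non-tuft libraries in every tuft library, and Calhm1 is at 0 in all small intestine and gall bladder tuft libraries.

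Within the small intestine, in a fit of the 6 tuft and non-tuft libraries, 5 of the 8 genes with enough counts to be tested were called higher in tuft cells. None of the 8 was called lower. Over all 16063 genes tested, 13% were called higher and 13.9% lower. Trpm5 was at 5358, 4799 and 3980 CPM in the tuft libraries, against 31.1, 29.1 and 68.6 CPM in the non-tuft libraries. Its log2 fold change was 6.87 ± 0.38 (SE; adjusted p = 5.91e-07). Every tuft library exceeded every non-tuft library by far, and non-tuft replicate 3 was the highest of its group. The same replicate was highest for Plcb2, the enzyme that makes IP3, which had 843, 969 and 804 CPM in the tuft libraries, against 10.5, 12.2 and 19.7 CPM in the non-tuft libraries. That is a log2 fold change of 6.04 ± 0.27 (adjusted p = 1.17e-07). The IP3 receptor gene Itpr2 was at 567, 673 and 598 CPM in tuft, against 24.8, 25.5 and 29.5 CPM in non-tuft libraries, a change of 4.62 ± 0.16 (adjusted p = 3.03e-08). Groups did not overlap for any of these genes.

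The pore subunit gene Calhm3 had 7.78, 6.97 and 5.26 CPM in small intestine tuft libraries, against 0.554, 0.587 and 0.0867 CPM in non-tuft libraries, a log2 fold change of 4.14 ± 0.63 (adjusted p = 0.000531). Calhm2, a related gene with no settled part in taste, had 6.71, 4.45 and 1.93 CPM in tuft, against 1.64, 1.86 and 1.76 CPM in non-tuft libraries. Its call (1.40 ± 0.47, adjusted p = 0.0357) rested on tuft replicates 2 and 3, since replicate 4 lay just above the non-tuft range. In the fit of all 21 libraries it was not called (adjusted p = 0.585), and it was lost in 5 of 6 fits that each left out 1 library. Calhm1, the other pore subunit, had 0 counts in each small intestine tuft library, where 3 counts would be 0.0658, 0.0733 and 0.0698 CPM, and 1 count in all in the non-tuft libraries.

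The other 3 genes were not called in the small intestine. Itpr3 was at 148, 149.5 and 120 CPM in tuft, against 188, 239 and 174 CPM in non-tuft libraries, so that all tuft libraries lay below (-0.43 ± 0.15, adjusted p = 0.0451, under the 2-fold limit). Trpm4, a close relative of Trpm5 that passes sodium when calcium rises and is widely expressed in epithelia, was at 49.7, 53.1 and 72.1 CPM in tuft, against 103, 110.1 and 91.3 CPM in non-tuft libraries (-0.70 ± 0.17, adjusted p = 0.00826, also under the limit). Itpr1, the receptor best known from neurons, hardly differed, with 32.02, 34.3 and 35.9 CPM in tuft and 37.3, 38.4 and 36.8 CPM in non-tuft libraries (-0.04 ± 0.14, adjusted p = 0.848). In libraries of sorted cells, fewer cells of a type and less RNA per cell cannot be told apart. Markers of other intestinal cells moved with the same comparison. The summed level of 8 enterocyte genes was 28000 to 31400 CPM in tuft and 14700 to 15700 CPM in non-tuft libraries, and that of 7 goblet cell genes 2070 to 2500 CPM in tuft and 103000 to 113000 CPM in non-tuft libraries. No gene of either list was at 0 in a whole group. Of the 8 enterocyte genes 2 were called higher and none lower, while all 7 goblet cell genes were called lower. All 5 Paneth cell, 6 enteroendocrine and 5 proliferation genes were called lower too. Of all genes 13% were called higher and 13.9% lower. The part of these cells in the differences was not tested.

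Each tuft tissue was set against the same 3 non-tuft libraries in a fit of all 21, with 20335 genes tested. The 5 comparisons therefore share their control, and outside the small intestine tissue, preparation and cell type cannot be told apart. Of the 9 genes, 4 were called higher in small intestine tuft cells (3.86% of all genes were), 4 in colon tuft cells (4.4%) and 4 in gall bladder tuft cells (12.4%). These were Plcb2, Itpr2, Trpm5 and Calhm3 each time, and none of the 9 was called lower in these tissues, against 2.65% of all genes in small intestine, 3.27% in colon and 13.5% in gall bladder. In thymus tuft cells 5 were called higher (17.2% of all genes) and 2 lower (10.3%), and in trachea tuft cells 7 were called higher (14%) and 1 lower (17.2%). Thymus added Calhm1, and trachea added Itpr1, Calhm1 and Calhm2.

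**Figure D2:**
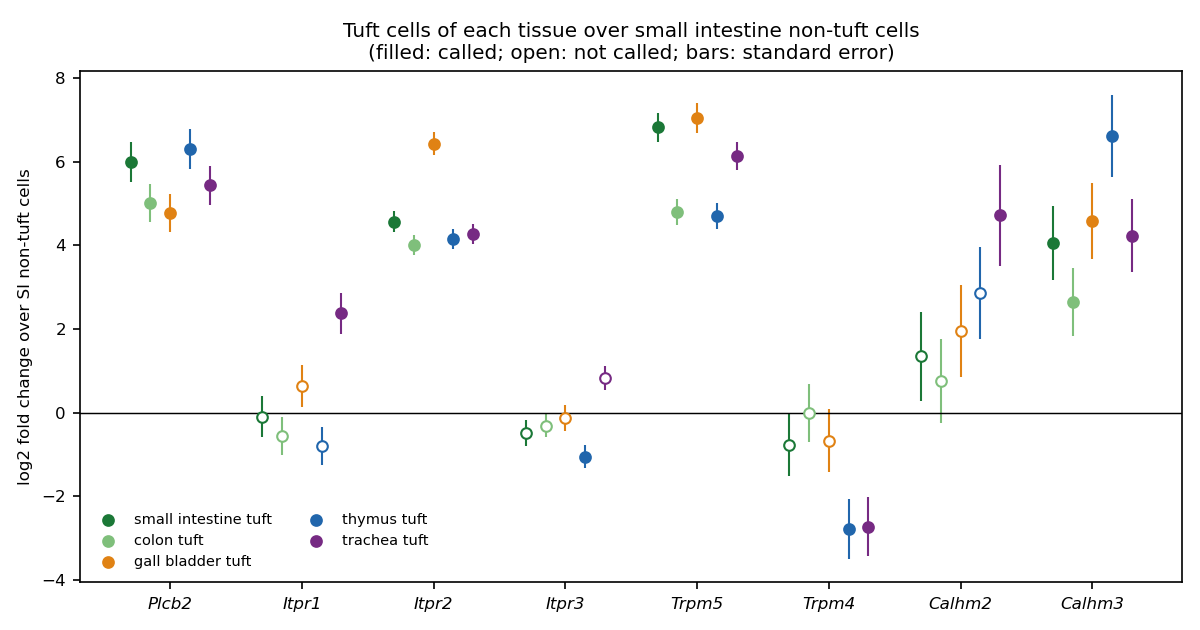
Log2 fold change of tuft cells of each tissue over non-tuft cells of the small intestine in the fit of 21 libraries, for 8 genes, without Calhm1, whose non-tuft libraries held 1 count; bars are 1 SE, filled points are called and open points are not. Plcb2, Itpr2, Trpm5 and Calhm3 are called above 0 in all 5 tissues, and Trpm4 is called below 0 in thymus and trachea.

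Across the 18 tuft libraries alone, all 9 genes passed the test for any difference among tissues with a range of at least 2-fold, as did 56.2% of the 19850 genes tested. Of the 90 tests of a gene in a pair of tissues, 37 (41.1%) were called, and the pairs differed widely. Colon and small intestine tuft cells differed in 1 gene (8.36% of all genes were called), gall bladder and small intestine in 2 (14.8%), and gall bladder and colon in 2 (18.2%). Thymus differed from small intestine in 3 (25.7%), from colon in 4 (25.6%) and from gall bladder in 6 (30.6%). Trachea differed from small intestine in 5 (27.8%), from colon in 6 (27.1%), from gall bladder in 4 (23.8%) and from thymus in 4 (27.9%).

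Plcb2 was highest in thymus tuft cells. Its levels were 1127, 1315, 1325 and 975 CPM in thymus, 843, 969 and 804 CPM in small intestine, 206, 692, 1060 and 537 CPM in trachea, 405, 445, 380.1 and 563 CPM in colon and 509, 394 and 232 CPM in gall bladder tuft libraries. The trachea pools were spread most, with pool 1 below every other tuft library and pool 3 within the thymus range. Thymus exceeded colon by 1.43 on the log2 scale (adjusted p = 0.00521) and gall bladder by 1.64 (adjusted p = 0.00415). No pair of neighbours in the order thymus, small intestine, trachea, colon, gall bladder was called. Gall bladder was called below small intestine (-1.20, adjusted p = 0.0478), but 12 of the 18 fits without 1 library lost that call.

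The TRPM5 transcript had another order. Gall bladder tuft libraries had 5684, 5581 and 5206 CPM, small intestine 5358, 4799 and 3980 CPM, trachea 2203, 4263, 2721 and 3123 CPM, thymus 1032, 1253, 1212 and 1262 CPM and colon 1127, 1058, 1022 and 1472 CPM. The tissues fell into an upper set of gall bladder, small intestine and trachea and a lower set of thymus and colon, and no library of the lower set reached one of the upper. Between neighbours, trachea over thymus was called (1.32, adjusted p = 5.17e-05). Gall bladder over small intestine was not (0.22, adjusted p = 0.522), nor was thymus over colon (0.05, adjusted p = 0.887), and trachea lay below small intestine by less than the limit (-0.67, adjusted p = 0.0173).

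Plcb2 and Trpm5 thus stood in different proportions. Per kilobase of merged exons, Trpm5 was 16.4 ± 6.0 times Plcb2 in gall bladder tuft (SD over 3 libraries), 5.59 ± 0.84 times in small intestine tuft and 2.70 ± 0.18 times in colon tuft. It was 1.05 ± 0.19 times Plcb2 in thymus tuft (4 libraries), 6.51 ± 3.46 times in trachea tuft and 3.04 ± 0.57 times in non-tuft libraries. The ranges of gall bladder (11.5 to 23.1), small intestine (5.10 to 6.56), colon (2.45 to 2.87) and thymus (0.943 to 1.34) did not overlap, whereas trachea (2.65 to 11.05) overlapped those of small intestine and colon. The ratio is a description, and the ratio itself was not tested.

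Set against the 15 tuft genes in place of all counts, Trpm5 varied less. Its level was 25.0% ± 1.8 of their sum in gall bladder tuft, 21.4% ± 3.4 in trachea tuft, 20.7% ± 2.6 in colon tuft, 16.7% ± 0.3 in small intestine tuft and 15.0% ± 0.7 in thymus tuft, against 12.7% ± 2.4 in non-tuft libraries (SD). Colon tuft, lowest in CPM, lay in the middle of this order. Plcb2 spread more widely, from 15.0% ± 2.3 in thymus tuft and 7.88% ± 0.68 in colon tuft to 1.72% ± 0.61 in gall bladder tuft. Trachea tuft had 4.14% ± 1.98 and small intestine tuft 3.12% ± 0.46. With 4.34% ± 0.65, the mean of non-tuft libraries lay above those of trachea, small intestine and gall bladder tuft. This measure was chosen after seeing the data.

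Among the IP3 receptors, Itpr2 stood out in gall bladder. Gall bladder tuft libraries had 2397, 1803 and 2513 CPM of Itpr2, small intestine 567, 673 and 598 CPM, trachea 367, 444, 683 and 620.2 CPM, thymus 453, 532, 533 and 502 CPM and colon 400.4, 385, 409 and 489 CPM, with 24.8, 25.5 and 29.5 CPM in non-tuft libraries. Every gall bladder library lay above every other library. Gall bladder exceeded small intestine by 1.86 (adjusted p = 2.23e-05) and colon by 2.44, and thymus and trachea lay below it, at log2 differences of -2.15 and -2.13. The other 4 tissues did not differ from their neighbours in the order beyond the spread between libraries, with adjusted p between 0.320 and 0.969.

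Itpr3 and Itpr1 were highest in trachea. Itpr3 was at 246, 311, 549 and 348 CPM in trachea tuft libraries, 110, 241 and 189.5 CPM in gall bladder, 185, 138, 150.3 and 164 CPM in colon, 148, 149.5 and 120 CPM in small intestine and 126, 123, 82.7 and 81.0 CPM in thymus, against 188, 239 and 174 CPM in non-tuft libraries. All 4 trachea pools exceeded all other tuft libraries, and all thymus libraries lay below the non-tuft range. Thymus was called below non-tuft cells (-1.05 ± 0.28, adjusted p = 0.00829), close to the 2-fold limit. DESeq2 and RLE scaling put it at -0.83, and RLE scaling moved the median change of all genes in that comparison to 0.443, against 0.221 with TMM. Trachea over non-tuft cells stayed under the limit (0.82 ± 0.29, adjusted p = 0.0346). Among tuft tissues, trachea was called above thymus (1.76), small intestine (1.33) and colon (1.17). Without the female pools, an alternative chosen after seeing the data, the differences from small intestine (0.98) and colon (0.84) fell under the limit.

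Itpr1 had 154, 88.4, 361 and 199 CPM in trachea tuft libraries, against 37.3, 38.4 and 36.8 CPM in non-tuft libraries. The other tuft libraries lay between 13.1 CPM in colon replicate 2 and 95.8 CPM in gall bladder replicate 4, which was the only one to overlap trachea. The trachea change over non-tuft cells was 2.37 ± 0.50 (adjusted p = 0.00092), and trachea was called above thymus (3.06), colon (2.97), small intestine (2.50) and gall bladder (1.78). The difference from gall bladder was not called without the female pools (1.08, adjusted p = 0.173). Itpr1 was not called in the other 4 tissues against non-tuft cells.

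As shares of the 3 receptors per kilobase of merged exons, Itpr2 made up 86.5% ± 5.5 in gall bladder tuft, 73.0% ± 5.5 in thymus tuft, 70.5% ± 2.4 in small intestine tuft and 59.95% ± 4.02 in colon tuft, against 7.03% ± 1.45 in non-tuft libraries (SD). Non-tuft cells held mostly Itpr3, at 85.0% ± 2.3. In trachea tuft, Itpr3 had 46.3% ± 3.3, Itpr2 41.6% ± 4.0 and Itpr1 12.1% ± 3.7. The order of Itpr3 and Itpr2 in trachea depended on the length used, since per kilobase of the longest transcript Itpr2 came to 43.4% and Itpr3 to 38.2%. Summed over the 3 genes, IP3 receptor transcripts were at 174 CPM per kilobase in gall bladder tuft, 87.0 in trachea tuft, 58.7 in small intestine tuft, 47.5 in colon tuft and 46.8 in thymus tuft, against 26.1 in non-tuft libraries.

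**Figure D3:**
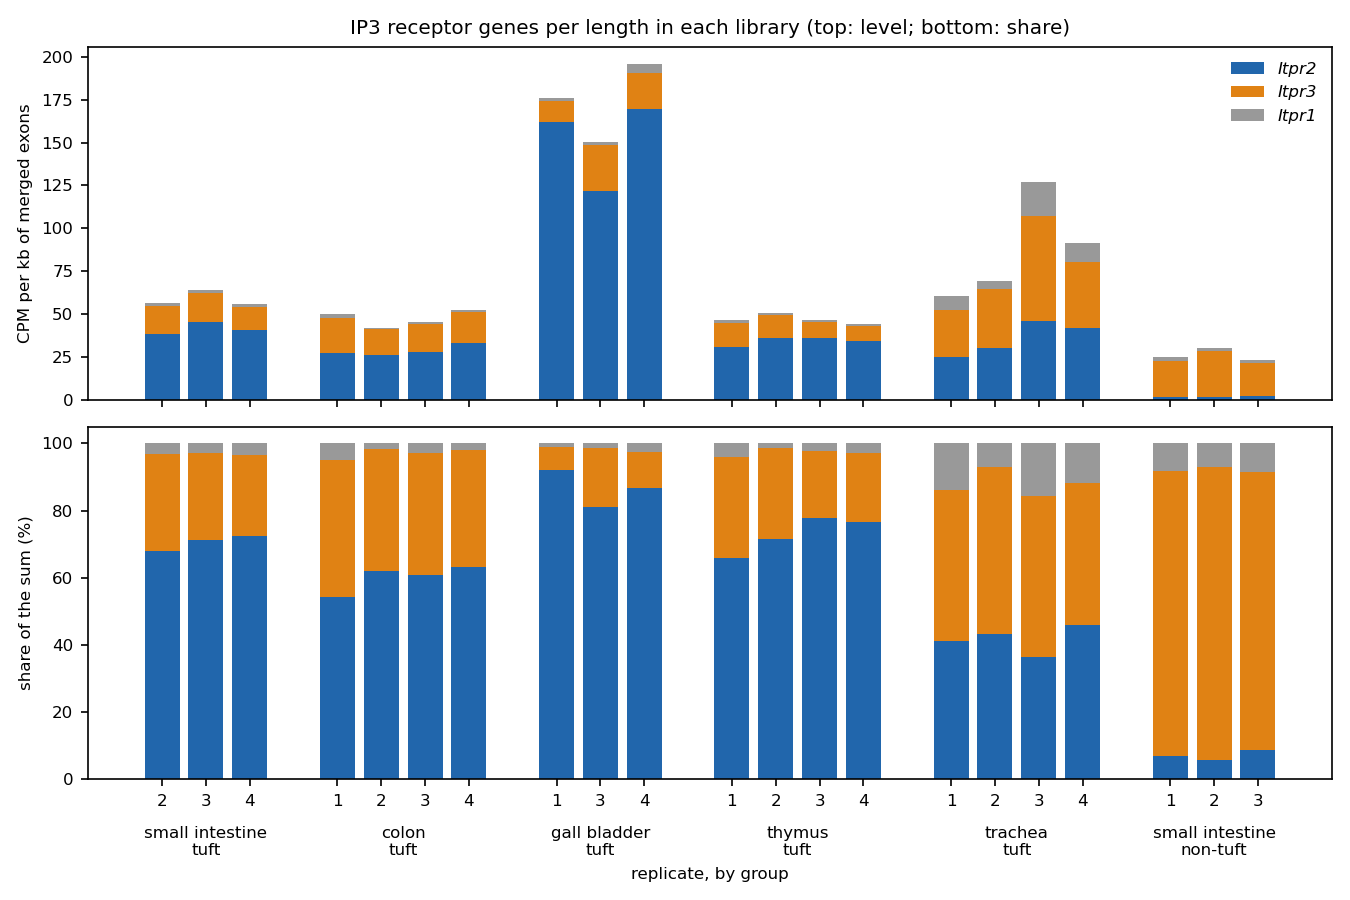
Itpr2, Itpr3 and Itpr1 as stacked bars, 1 bar per library numbered by replicate, as CPM per kilobase of merged exons (top) and as percent of their sum (bottom); tuft groups stand left of the non-tuft group. Itpr2 takes the largest share in small intestine, colon, gall bladder and thymus tuft libraries, while Itpr3 dominates the non-tuft libraries.

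Trpm4, the close relative of Trpm5, was lowest in thymus and trachea tuft cells. Trpm4 was at 80.8, 95.8, 100.5 and 122 CPM in colon tuft libraries, 79.1, 61.1 and 46.9 CPM in gall bladder, 49.7, 53.1 and 72.1 CPM in small intestine, 9.40, 33.2, 16.0 and 3.86 CPM in thymus and 24.1, 30.9, 1.48 and 4.45 CPM in trachea, against 103, 110.1 and 91.3 CPM in non-tuft libraries. Thymus and trachea libraries all lay below those of the other tuft tissues, and colon overlapped the non-tuft range. Against non-tuft cells, thymus fell by 2.78 ± 0.72 (adjusted p = 0.00611) and trachea by 2.72 ± 0.71 (adjusted p = 0.00578) on the log2 scale. Thymus (-2.65) and trachea (-2.74) were also called below colon tuft cells. Calls of trachea below small intestine tuft (-1.99) and gall bladder tuft cells (-2.09), and of thymus below gall bladder tuft cells, were less stable, since 14, 14 and 12 of 18 fits without 1 library lost them. Thymus below small intestine tuft cells was not called (-1.90, adjusted p = 0.062). Within trachea the female pools 3 and 4 were the low ones. Without them trachea was still called below non-tuft cells (-1.86, adjusted p = 0.0234) but not below small intestine tuft (-1.11, adjusted p = 0.197) or gall bladder tuft cells (-1.18, adjusted p = 0.182). Per kilobase, Trpm5 was 95.2% to 99.7% of the summed level of both genes in the 5 tuft tissues, on average, against 40.2% ± 13.7 in non-tuft libraries. Per kilobase of the longest transcript, these shares ran from 92.4% in colon tuft to 99.5% in trachea tuft, against 29.9% ± 12.3 in non-tuft libraries.

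Among the Calhm genes, Calhm3 was highest in thymus tuft cells. It was at 39.1, 54.1, 38.5 and 39.8 CPM in thymus tuft libraries, 2.21, 13.3 and 13.4 CPM in gall bladder, 8.31, 5.21, 9.37 and 8.78 CPM in trachea, 7.78, 6.97 and 5.26 CPM in small intestine and 2.84, 5.13, 0.466 and 1.60 CPM in colon, against 0.554, 0.587 and 0.0867 CPM in non-tuft libraries. Thymus lay above all other libraries, and colon replicate 3 fell within the non-tuft range. Thymus exceeded non-tuft cells by 6.62 ± 0.98 (adjusted p = 3.41e-05), gall bladder did so by 4.59 ± 0.91 and trachea by 4.23 ± 0.88. The colon change (2.64 ± 0.81, adjusted p = 0.0468) was lost in 13 of 21 fits without 1 library. Among tuft tissues, thymus was called above colon (4.13), small intestine (2.68) and gall bladder (2.17), and trachea was called below thymus (-2.49). The thymus calls over gall bladder and small intestine were lost in 6 and 3 of 18 fits without 1 library, and no pair among the other 4 tissues was called.

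Calhm1 was detected in thymus and trachea and nearly nowhere else. It had 34, 29, 61 and 561 counts in thymus tuft libraries, which are 0.582, 0.556, 0.913 and 11.2 CPM, and 23, 47, 386 and 468 counts in trachea tuft libraries, which are 0.635, 0.711, 12.2 and 18.3 CPM. Small intestine and gall bladder tuft libraries had 0 counts each, the 4 colon tuft libraries 1 count in all, and the 3 non-tuft libraries 1 count in all. Each of the 8 thymus and trachea libraries was therefore above all others, but 1 thymus library and the 2 female trachea pools held most of the counts. With 3 counts per library as the floor, the mean level was at least 47.6-fold higher in thymus tuft than in small intestine tuft cells and at least 39.1-fold higher than in gall bladder tuft cells. For trachea tuft cells it was at least 114-fold higher than in small intestine tuft and at least 93.6-fold higher than in gall bladder tuft cells. Without thymus replicate 4 the thymus bounds fell to 9.82-fold and 8.06-fold, and without the female pools the trachea bounds fell to 9.67-fold and 7.93-fold, both alternatives chosen after seeing the data. The pooled ratio to non-tuft cells was 526 for thymus tuft (95% exact interval of the counts 94.0 to 20800) and 1010 for trachea tuft (181 to 39900), with 1 count on the non-tuft side. These intervals cover counting error only and not the spread between libraries. Calhm1 was called over non-tuft cells in both thymus (adjusted p = 0.00736) and trachea tuft cells (adjusted p = 0.00315), while trachea over thymus was not called (1.21, adjusted p = 0.555). The thymus library with the most Calhm1, replicate 4, had the least Trpm4 of its group, and the 2 trachea pools with the most Calhm1 likewise had the least Trpm4.

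Calhm2 was highest in trachea tuft libraries, at 33.2, 52.0, 76.8 and 26.3 CPM, against 1.64, 1.86 and 1.76 CPM in non-tuft libraries. The other tuft libraries lay between 0.175 CPM in gall bladder replicate 4 and 23.1 CPM in thymus replicate 3, below all trachea pools. Gall bladder libraries spread from 0.175 to 19.5 CPM on both sides of the non-tuft range, and the thymus change of 2.85 ± 1.09 missed the threshold (adjusted p = 0.0556). Under 6 alternatives that thymus change was called, with adjusted p from 0.000174 in limma voom to 0.0449 with a stricter filter. Trachea exceeded non-tuft cells by 4.72 ± 1.21 (adjusted p = 0.00471), colon tuft by 3.98 and small intestine tuft by 3.38. The last of these was not called without the female pools (adjusted p = 0.0805), and 5 of 18 fits without 1 library lost it. Trachea over gall bladder (2.74, adjusted p = 0.0867) and over thymus tuft cells (1.74, adjusted p = 0.201) was not called. Since Calhm2 and Pdcd11 share exon bases, part of these counts could belong to Pdcd11.

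Per kilobase of merged exons, Calhm3 made up 89.1% ± 13.5 of the 3 Calhm genes in gall bladder tuft (SD, n = 3), 87.4% ± 7.9 in thymus tuft (n = 4), 87.2% ± 4.5 in small intestine tuft (n = 3) and 70.9% ± 19.7 in colon tuft (n = 4). In trachea tuft (n = 4), Calhm2 had 46.2% ± 19.5, Calhm3 32.9% ± 11.2 and Calhm1 20.9% ± 22.5. Their ranges over the pools overlapped, with Calhm2 between 20.8% and 68.2%, Calhm3 between 24.7% and 49.5% and Calhm1 between 3.15% and 50.2%, and the order of the 3 genes there was not tested. Calhm1 took 5.51% ± 8.61 of the thymus sum, with 0.836% in the lowest library and 18.4% in the highest. In non-tuft libraries (n = 3) Calhm2 had 55.7% ± 23.7 and Calhm3 43.8% ± 23.2, at a summed level of 0.800 ± 0.275 CPM per kilobase.

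**Figure D4:**
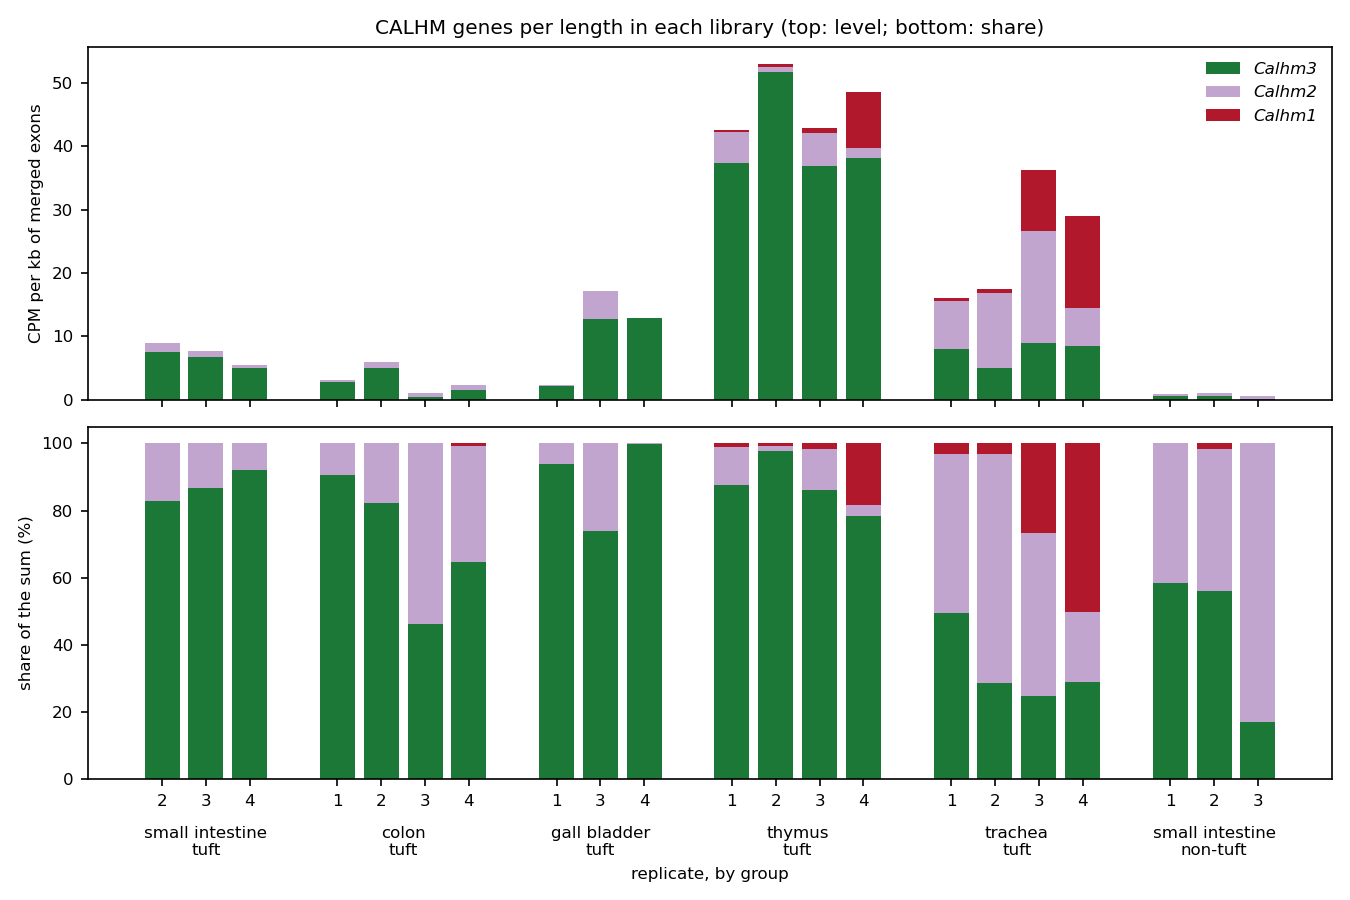
Calhm3, Calhm2 and Calhm1 as stacked bars, 1 bar per library numbered by replicate, as CPM per kilobase of merged exons (top) and as percent of their sum (bottom); tuft groups stand left of the non-tuft group. The sum is highest in thymus tuft libraries, mostly Calhm3, and Calhm1 is large in thymus replicate 4 and trachea pools 3 and 4.

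Markers of other cells differed between the tissues as well. In trachea tuft libraries 6 airway secretory genes summed to 33100 to 129000 CPM, against 62.4 to 87.5 CPM in non-tuft libraries, with none at 0 and Scgb1a1 at a mean of 23600 CPM. The 6 myeloid genes summed to 1790 to 3850 CPM in trachea tuft libraries, mostly Lyz2 (mean 2640 CPM), against 13.7 to 21.8 CPM in non-tuft libraries. Of the 6 myeloid genes, 2 were called higher and 1 lower there (14% and 17.2% of all genes were). The 4 basal cell genes summed to 817 to 937 CPM in thymus tuft and 230 to 880 CPM in trachea tuft, against 5.12 to 8.09 CPM in non-tuft libraries. In gall bladder tuft libraries 5 ciliated cell genes summed to 601 to 688 CPM, against 13.8 to 16.7 CPM in non-tuft libraries. Only 2 of the 5 were called higher there (12.4% of all genes were). The same sum was 299 to 490 CPM in colon tuft and 221 to 398 CPM in thymus tuft libraries. It was 41.9 to 234 CPM in trachea tuft and 10.1 to 10.4 CPM in small intestine tuft libraries. The 5 biliary genes were at 1530 to 1860 CPM in gall bladder tuft and 1490 to 1830 CPM in non-tuft libraries. Of the 5 biliary genes, 3 were called higher and 2 lower in gall bladder tuft cells (12.4% and 13.5% of all genes were). Among them Sox17 averaged 67.4 CPM in gall bladder tuft and had 0 counts in non-tuft libraries. Whether cells of these types were present was not tested. Their part in the trachea and thymus values of Itpr1, Itpr3, Trpm4 and the Calhm genes was not tested either. The same holds for the gall bladder value of Itpr2.

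The share of counts from mitochondrial genes also followed tissue. It was 24.1% to 33.5% in small intestine tuft, 17.7% to 23.0% in colon tuft, 14.8% to 17.0% in gall bladder tuft, 4.38% to 5.97% in thymus tuft and 5.57% to 10.1% in trachea tuft, against 18.6% to 23.7% in non-tuft libraries. Thymus and trachea tuft libraries had the lowest shares, and they also had the lowest Trpm4 and the highest Calhm1. The part of this share in the differences between tissues was not tested, and leaving mitochondrial genes out of the total moved 21 of 54 mean levels by more than 1 SD.

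Other genes of the pathway were read from lists of named genes. Small intestine counts here are from the fit of 6 libraries and the others from that of 21. In the fit of 21 fewer genes were called lower in small intestine tuft cells (2.65% of all genes were). There 2 of 11 other phospholipase C genes fell, and none of 4 other TRPM genes or 6 other ATP release genes. The small intestine calls of Trpm2 and Slc17a9 below thus come from the fit of 6 alone. The counts of each list stand against the shares of all genes called, which were 13% higher and 13.9% lower in small intestine tuft cells, 4.4% and 3.27% in colon, 12.4% and 13.5% in gall bladder, 17.2% and 10.3% in thymus and 14% and 17.2% in trachea tuft cells. Upstream of PLCB2, the G protein genes Gnat3 (gustducin alpha), Gnb3 and Gng13 were all called higher in thymus tuft and trachea tuft cells, so 3 of 4 tested in each, with Gnb1 the exception. Gnat3 averaged 5550 CPM in trachea tuft and 607 CPM in thymus tuft, and 93.0, 34.9 and 16.1 CPM in colon, small intestine and gall bladder tuft, against 3.78 CPM in non-tuft libraries. Gng13 was highest in gall bladder tuft at 118 CPM, against 0.368 CPM in non-tuft libraries. In small intestine tuft cells 2 of the 4 were called higher (Gnat3 and Gng13), in gall bladder the same 2, and in colon Gnat3 alone. The receptor subunit gene Tas1r3 was called higher in gall bladder, thymus and trachea tuft cells, with means of 30.8, 126 and 454 CPM, against 4.10 CPM in non-tuft libraries. Of the 3 genes of its family, Tas1r1 also rose in thymus and fell in trachea tuft cells. The fall starts from a low level, since the 3 genes together averaged 4.42 CPM in non-tuft libraries, of which Tas1r3 made up 4.10 CPM.

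Among 11 other phospholipase C genes, Plcg2, an isoform activated by tyrosine kinases, was called higher in all 5 tuft tissues. It averaged 642 CPM in small intestine tuft, 196 CPM in colon tuft, 884 CPM in gall bladder tuft, 147 in thymus tuft and 194 in trachea tuft, against 17.8 in non-tuft libraries. Gall bladder and small intestine tuft cells had the most of it, as they had of Trpm5. Plcb3 was called lower in gall bladder (65.1 CPM), thymus (38.1) and trachea tuft cells (25.0), against 423 CPM in non-tuft libraries, and had 321 and 309 CPM in small intestine and colon tuft. In this list 1 of 10 tested rose and 6 fell in small intestine, 1 of 11 rose in colon, 3 rose and 3 fell in gall bladder, 2 rose and 3 fell in thymus and 3 rose and 2 fell in trachea tuft cells. Around the IP3 receptors, Lrmp, whose product binds them, was called higher in all 5 tissues and averaged 2230 CPM in trachea tuft and 1040 CPM in small intestine tuft, against 15.8 CPM in non-tuft libraries. Inpp5j, an inositol phosphatase gene, was also called higher in all 5, and Itpkb, an IP3 kinase gene, in 4, without colon. In that list 3 of 9 rose and 2 fell in small intestine, 2 rose and 1 fell in colon, 3 and 2 in gall bladder, 4 and 2 in thymus and 4 and 4 in trachea tuft cells.

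For calcium stores and entry, Atp2a3, a pump that refills the endoplasmic reticulum, was called higher in all 5 tissues and reached 4420 CPM in small intestine tuft and 2700 CPM in gall bladder tuft, against 267 CPM in non-tuft libraries. In this list 3 of 9 tested rose in small intestine and, of 11 tested, 2 in colon, 3 in gall bladder, 4 in thymus and 3 in trachea tuft cells. Ryr1, a calcium release channel gene, was among them in all but trachea. Of the other TRPM genes, Trpm6, a magnesium channel, was called higher in colon tuft (mean 123 CPM) and lower in gall bladder and trachea tuft cells, and Trpm2 lower in small intestine, colon and trachea tuft cells. Of 4 tested, 1 rose and 1 fell in colon, 1 fell in gall bladder, 1 rose in thymus and 1 rose and 2 fell in trachea. Of the ATP release genes outside the Calhm family, Gja1 was called higher in gall bladder and thymus tuft cells. Slc17a9, the vesicular nucleotide transporter, was called lower in small intestine and thymus tuft cells. In that list 1 of 5 tested fell in small intestine, and none of 6 was called in colon. Of the 6, 1 rose and 1 fell in gall bladder, 1 rose and 2 fell in thymus and 2 fell in trachea tuft cells. Of the genes Calhm4 to Calhm6, Calhm6 was called lower in gall bladder and trachea tuft cells. These calls lie near the floor, since the 3 genes together were at 0.161 to 0.324 CPM in non-tuft libraries. There 3 counts would be 0.0434 to 0.0608 CPM. Entpd3, an enzyme that breaks down extracellular ATP, was called higher in small intestine, gall bladder, thymus and trachea tuft cells. Its means were 6.28, 53.0, 146 and 204 CPM there and 1.72 CPM in colon tuft, against 2.13 CPM in non-tuft libraries. With it, of 7 genes for ATP breakdown and ATP receptors, 1 rose and 2 fell in small intestine, 2 rose and 1 fell in gall bladder, and 2 rose and 2 fell in both thymus and trachea tuft cells. Of the sodium channel genes of taste cells, Scn2a was called higher in thymus and trachea tuft cells, with a mean of 16.7 CPM in thymus tuft and 2.22 CPM in trachea tuft, against 0.143 CPM in non-tuft libraries. Its relative Scn3a fell in small intestine, colon, gall bladder and trachea tuft cells. In this list 2 of 2 tested fell in small intestine. Of 3 tested, 1 fell in colon, 2 fell in gall bladder, 2 rose in thymus and 1 rose and 2 fell in trachea tuft cells.

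**Figure D5:**
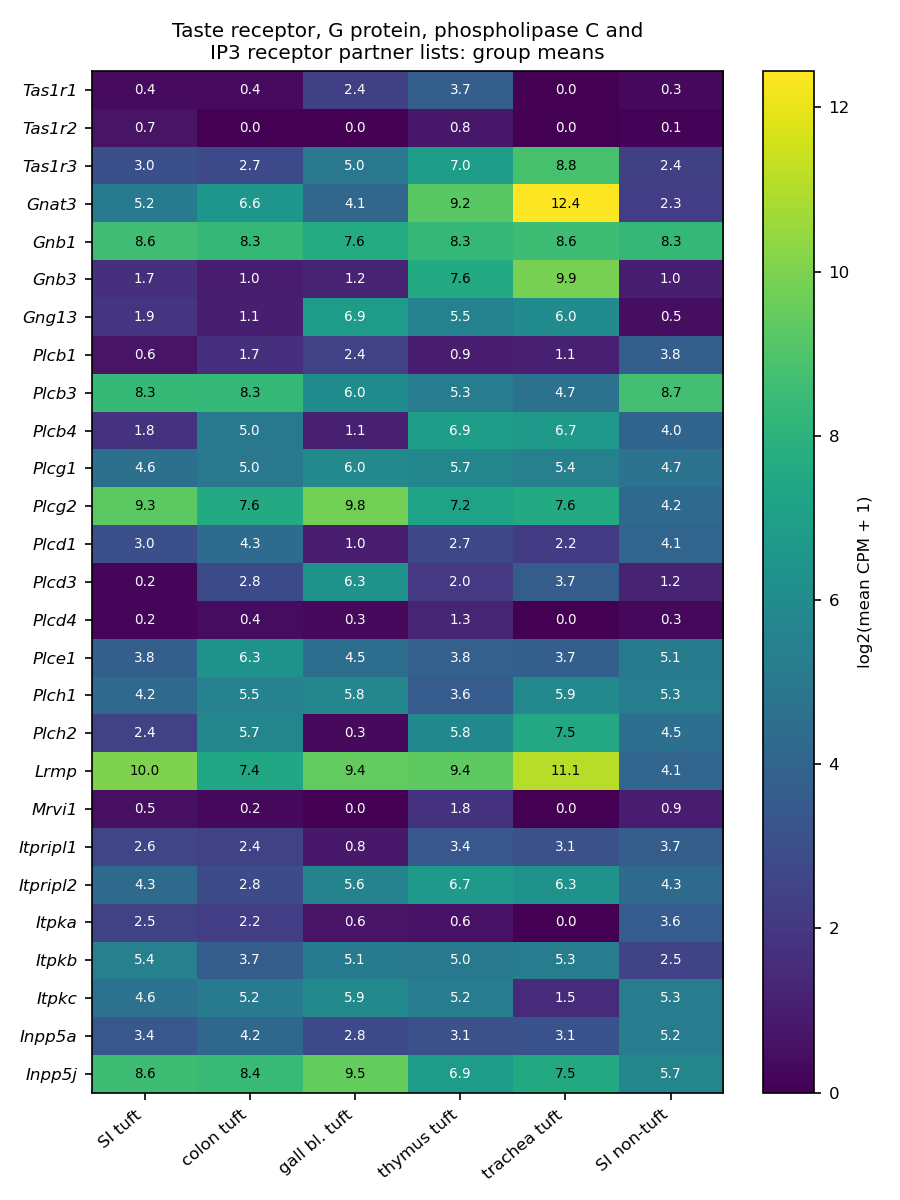
Group means of the taste receptor, G protein, phospholipase C and IP3 receptor partner lists, as log2(mean CPM + 1) in color and printed in each cell, with the 5 tuft groups left of the non-tuft group. Gnat3 and Tas1r3 are highest in trachea tuft, Plcg2 and Inpp5j in gall bladder tuft.

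Across the 18 tuft libraries, the genes most like each member in log2(CPM + 1) were found by Pearson correlation among genes whose mean reached 20 CPM in some tuft group. Trpm5 was most like Vav1 (r = 0.939), Crot (0.934) and Alox5 (0.922). Vav1 and Alox5 belong to the 15 tuft genes. Plcb2 had a different nearest set, Ndrg3 (0.876), Rb1 (0.831) and Trim12a (0.817). Itpr2 was nearest to Arhgap36 (0.949), Sox17 (0.945) and Rasgrf1 (0.942). Those 3 genes were high in gall bladder alone, and their rank correlations with Itpr2 were 0.458, 0.363 and 0.452. Itpr3 was nearest to Nipal3 (0.923), Itgb5 (0.907) and Vps13d (0.906), and Itpr1 to Ubr3 (0.905), Lman2l (0.889) and Clic6 (0.875). Trpm4 was nearest to Tstd1 (0.948), Sord (0.916) and Gipc2 (0.891). For Calhm1 the nearest were Tusc3 (0.936), Heatr5b (0.901) and P2rx6 (0.897), with rank correlations of 0.837, 0.524 and 0.837. For Calhm2 they were Agbl3 (0.895), Rrm2b (0.882) and Rab23 (0.876), and for Calhm3 Birc2 (0.874), Ptgs2 (0.874) and Dnaja1 (0.861). Libraries of a tissue share preparation, cell number and depth, so these coefficients mostly follow differences between tissues, and they are descriptions over 18 points.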

How the data were processed

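Tuft and non-tuft cells of 21 libraries were sequenced as amplified poly(A) RNA without molecular identifiers, per the labels' protocols, so counting intervals cover counting error only. The deposited files hold whole-number read counts per gene. GRCm38, STAR and DESeq2 are named in the submitters' processing notes, and the sources used here give neither the counting step nor its use of strand. Of 43432 identifiers, 42548 matched GENCODE M21, and the 884 others held 0.0986% of counts. Mitochondrial genes took 4.38% to 33.5% of a library.

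Counts were analysed with edgeR 4.0.16 (filterByExpr, TMM, quasi-likelihood F test) in R 4.3.3, with limma 3.58.1 and DESeq2 1.42.0 as alternatives, and with pandas 2.3.3 and matplotlib 3.10.9 in Python 3.11.15. P-values were adjusted over all genes tested. Standard errors are approximate, derived from each fold change and its F. Levels are CPM scaled by TMM over all genes, and lengths are merged exons of GENCODE M21. The 9 genes and all lists were chosen with earlier results of these data known. All 9 were named, with the genes of the lists and, per gene, the 3 most like it over 18 tuft libraries by the rule given above. Libraries were taken as separate mice or pools. The labels give the number of mice per library, and whether libraries of different groups shared a mouse is not known here. Alternatives tried were leaving out each library, RLE scaling, other filters, fits of 2 groups, a replicate block, DESeq2 and limma, and CPM on other totals.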

Additional observations from a re-analysis of the deposited data

Results flagged for a closer look

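In 26 groups of 4 libraries, each a gene in colon, thymus or trachea, the gap between an extreme library and the next was set against the group's range, a test that chance passes in about 1 of 20 groups. It picked 2 libraries. Calhm1 in thymus tuft replicate 4 was at 11.22 CPM, far above the other 3 thymus libraries, and the gap took 0.966 of the range. The reads behind it were 561 counts, against 29 to 61 in the other thymus libraries. Calhm3 in thymus tuft replicate 2 was at 54.06 CPM, above 38.5 to 39.8 CPM in the other 3, and the gap took 0.915 of the range.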

How the results depend on the processing

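Counts of called genes among the 9 stayed within 1.5 times of those reported under DESeq2, RLE scaling, no filter, all 21 libraries and fits of 2 groups. With at least 5 CPM required in 3 libraries, 3 genes were called in the small intestine in place of 5, since Calhm2 and Calhm3 were then not tested. With limma voom, 3 in place of 1 were called between colon and small intestine tuft cells, and 5 in place of 3 between thymus and small intestine tuft cells. Without the female trachea pools, 2 in place of 1 were called between colon and small intestine tuft cells, 2 in place of 5 between trachea and small intestine, and 2 in place of 4 between trachea and gall bladder. The cause of these shifts was not tested. RLE scaling moved the median log2 change of all genes, thymus tuft over non-tuft, to 0.443, against 0.221 with TMM. Itpr3 in thymus was then at -0.83, under the limit, and Calhm2 in thymus over non-tuft cells was called (3.08, adjusted p = 0.0433), as it was with DESeq2 (0.00558), the stricter filter (0.0449), voom (0.000174) and 2 groups (0.0072). Calhm3 in colon missed the threshold (adjusted p = 0.0506 with RLE, 0.0697 in a fit of 2 groups and 0.0745 with no filter). With limma voom, Calhm2 in gall bladder over non-tuft cells turned to -0.50, against 1.95 in the fit reported. Trpm4 in colon over non-tuft cells was -0.0022 as reported and 0.00045 without the female pools. Neither was called.

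No pairing by replicate number was seen. Over 45 pairs of same-numbered libraries, the correlation of their deviations from group means ran from -0.112 to 0.193. No pair of groups had all correlations above 0.1. Low correlations cannot show that same-numbered libraries came from different mice. Small intestine tuft and non-tuft cells shared only replicate numbers 2 and 3. With the replicate block, 1 gene in place of 2 was called between gall bladder and small intestine tuft cells, as Plcb2 missed the threshold (-1.09, adjusted p = 0.11), and Trpm4 in colon over non-tuft cells became 0.26, uncalled. Calhm2 in the small intestine (adjusted p = 0.0526) and Calhm3 in colon over non-tuft cells (0.0712) and in thymus over gall bladder tuft cells (0.0691) also missed it with the block, and Calhm2 in thymus over non-tuft cells passed (0.0415).

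Leaving out each library in turn gave 4 to 5 called genes in the small intestine fit, and against non-tuft cells in the fit of 21 libraries 4 to 4 for small intestine, 3 to 4 for colon, 4 to 4 for gall bladder, 6 to 8 for thymus and 8 to 8 for trachea. All 9 differed among tuft tissues each time (9 to 9). Between tuft tissues the range was 1 to 2 for colon and small intestine, 1 to 2 for gall bladder and small intestine, 2 to 4 for thymus and small intestine, 3 to 5 for trachea and small intestine, 2 to 3 for gall bladder and colon, 4 to 5 for thymus and colon, 5 to 7 for trachea and colon, 4 to 7 for thymus and gall bladder, 2 to 6 for trachea and gall bladder and 4 to 5 for trachea and thymus. Uncalled changes over non-tuft cells that turned their sign were Calhm1 in colon (-1.75 to 1.57), Calhm2 in gall bladder (-2.11, without gall bladder replicate 3, to 2.52), Itpr3 in gall bladder (-0.37 to 0.13), Trpm4 in colon (-0.18 to 0.0891) and Itpr1 in the small intestine fit (-0.0904 to 0.0222).

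Counts over all genes moved by more than 1.5 times in some settings. DESeq2 called 2350 genes, against 1324, for small intestine tuft over non-tuft cells (21 libraries), 2340 against 1559 for colon, 2821 against 1660 between colon and small intestine tuft and 4831 against 2928 between gall bladder and small intestine tuft. Voom called 5884 against 1324 for small intestine, 4603 against 1559 for colon and 9609 against 5585 for thymus tuft over non-tuft cells. Between tuft tissues voom called 5051 against 1660 for colon and small intestine, 8871 against 5104 for thymus and small intestine, 7845 against 5081 for thymus and colon and 2290 against 4724 for trachea and gall bladder. The stricter filter called 2866 against 4327 in the small intestine fit and 3593 against 5548 between trachea and thymus tuft. Fits of 2 groups called 4327 against 1324 for small intestine and 3405 against 1559 for colon. Mean levels moved by more than 1 SD for 12 of 54 values on plain library totals and 21 of 54 without mitochondrial genes. With the longest transcript as the length, 18 of 48 shares of a gene in its family moved by more than 1 SD. At 0 or 1 count in a whole group, Calhm1 outside thymus and trachea allows bounds only.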
